A study of Mus musculus with 24 samples.

Results

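Gene expression was compared between TH1 cells that had been restimulated and naive CD4 T cells that had been stimulated, both sampled 6 hours after the stimulus. The comparison used the 6 RNA-seq libraries titled as reactivated effectors and the 6 titled as activated naive cells, 12 of the 24 libraries of the series, and paired them by the number in the title. The other 12 libraries were unstimulated TH1 effectors and naive cells, 6 of each, and served for the estimate of spread and for a comparison at rest. Reactivated TH1 cells had been differentiated for 5 days from naive splenic CD4 T cells and were then exposed to macrophages loaded with antigen. For activated naive cells the labels give 6 hours of stimulation and name no stimulus, so cell state, stimulus and macrophages cannot be told apart here. All cells came from C57BL/6 mice that carried a pair of transgenes (OT-II/Nur77GFP, genotype OT2Nur77GFP+/-), both in all groups. The strains crossed were the Nr4a1-EGFP/cre line 820Khog and the TcraTcrb line 425Cbn. The OT-II receptor chains recognise a peptide of ovalbumin, and the Nur77 transgene drives green fluorescent protein from Nr4a1 regulatory DNA. The endogenous Nr4a1 gene is counted here, and whether transcripts of the transgene added to its counts was not tested. Cells were sorted before RNA was taken, with no gate named in the labels.

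CD4 T cells that meet antigen switch on immediate-early genes, among them the NR4A, EGR and AP-1 factors, through calcium, MAP kinase and NF-kB signalling. Naive cells then grow for a day or more before they divide and acquire a helper fate. TH1 cells have completed that step under the transcription factor T-bet, keep their cytokine genes accessible, and are known for rapid release of interferon-γ on a second encounter. The values below set these responses side by side at one time point. A difference between the groups therefore includes what already differed before the stimulus, which the unstimulated libraries measure.

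Reads assigned to genes numbered 22146672 to 34262645 per reactivated TH1 library and 20758549 to 32150758 per activated naive library. Levels are given as TMM-normalised counts per unit of depth, the usual CPM over reads assigned to genes, and a fold change as its log2. A gene was called when edgeR's quasi-likelihood test gave a Benjamini-Hochberg adjusted p under 0.05 over 12584 tested genes. Values after ± are standard errors of the 6 paired log2 differences, or standard deviations over 6 libraries where a CPM is given. The paired differences were taken on log2 CPM with a prior count of 2, while the fold changes come from the fit. Where a group has few counts, the prior narrows this error, which then understates the uncertainty of the fold change. Spp1 and Ccl1, for example, had 6 and 8 counts over the activated naive libraries. The libraries held T cell transcripts in both groups, with Cd3d, a chain of the receptor complex, at 258 ± 14.7 CPM in reactivated TH1 cells and 230.2 ± 23.6 CPM in activated naive cells (SD, n = 6). Macrophage transcripts were present at low levels in reactivated TH1 libraries. Lyz2, the lysozyme of macrophages, had 991 counts over the 6 reactivated TH1 libraries, at 4.58 to 7.23 CPM, and 1 count over the 6 activated naive libraries. Csf1r, the receptor for macrophage growth factor, and C1qa and C1qb, subunits of complement C1q, had 121, 52 and 251 counts in reactivated TH1 libraries, against 0, 0 and 2 counts in activated naive libraries. Mertk, Cd14 and C1qc had 44, 58 and 154 counts in reactivated TH1 libraries, against 0, 16 and 4 in activated naive libraries. Over the 37 macrophage genes of the list that were in the files, summed levels ran from 410 to 645 CPM in reactivated TH1 libraries and from 146 to 164.1 CPM in activated naive libraries. The same sum ran from 400.9 to 466.8 CPM in unstimulated TH1 effectors and from 336.7 to 389.0 CPM in naive cells. Lyz2, by contrast, had 11 and 32 counts in those groups. Ctsb, a lysosomal protease that many cells make, was at 240.2 CPM of that sum in reactivated TH1 cells and at 58.0 CPM in activated naive cells. Unstimulated TH1 effectors held 243.6 CPM of Ctsb and naive cells 151.2 CPM. In bulk libraries, fewer cells of a type and less RNA per cell cannot be told apart. The part of these transcripts in the results was not tested.

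**Figure D1:**
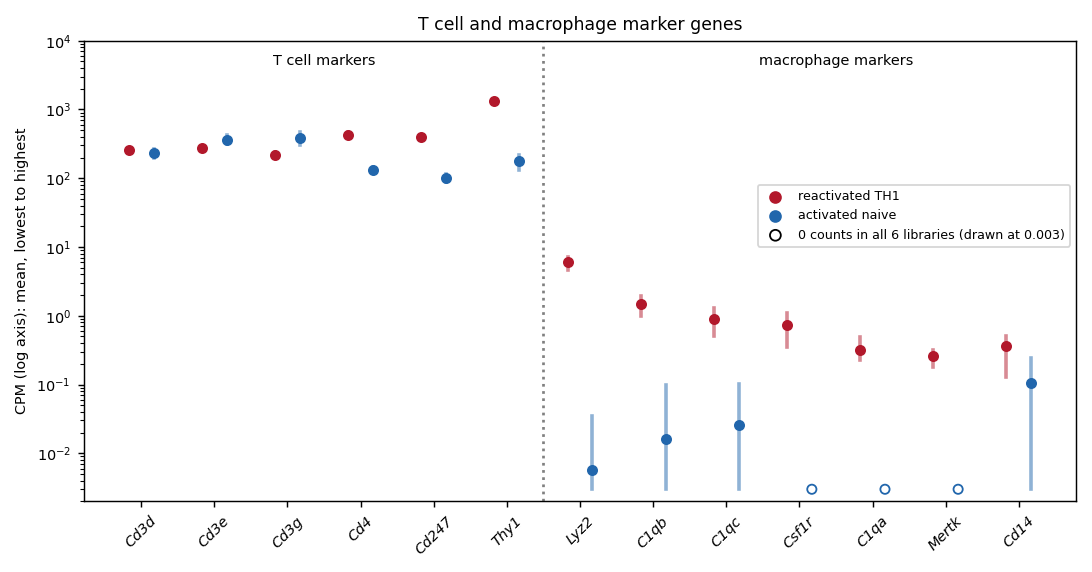
Mean level (point) and lowest to highest library (bar) of 6 T cell markers and of 7 macrophage markers (Lyz2, C1qb, C1qc, Csf1r, C1qa, Mertk and Cd14, chosen from the list as genes that define macrophages), in CPM on a log axis, in 6 reactivated TH1 and 6 activated naive libraries. T cell markers average between 100 and 1317 CPM in both groups, while these 7 macrophage markers average at most 5.98 CPM in reactivated TH1 libraries and at most 0.107 CPM in activated naive libraries.

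The groups differed in 10118 of the genes tested (80.4%). In reactivated TH1 cells 5510 genes were higher (43.8% of those tested) and 4608 were lower (36.6%) than in activated naive cells. A difference of at least 2-fold was called upward for 2901 genes (23.1%) and downward for 1376 (10.9%). Libraries of the 2 groups did not overlap for 4239 genes that were higher (33.7%) and for 3340 that were lower (26.5%). The median log2 fold change over all tested genes was 0.08. Counts of called genes in the lists below stand against these shares. Reads that the counting step gave to no feature made up 15.6% ± 1.97 of reads in reactivated TH1 libraries. In activated naive libraries they made up 22.8% ± 1.39 (SD, n = 6). Their positions are not given, so they may lie within or outside genes. The share was lower in reactivated TH1 libraries in 6 of 6 pairs (exact paired permutation test, two-sided p = 0.0312, the smallest that 6 pairs allow). The part of this difference in the results was not tested.

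Interferon-γ differed widely between the groups. Ifng (chr10:118441046-118445892, plus strand, mm10), which encodes the defining TH1 cytokine, ran from 9168 to 19060 CPM (median 12110) in reactivated TH1 libraries and from 0.235 to 0.833 CPM (median 0.463) in activated naive libraries. Every reactivated TH1 library lay above every activated naive library. The log2 fold change was 14.73 ± 0.42 (adjusted p = 6.55e-17). Before stimulation Ifng averaged 198 ± 62.1 CPM in TH1 effectors and 0.112 ± 0.101 CPM in naive cells (SD, n = 6). Interleukin 2, the T cell growth factor that naive cells are known to make on activation, was also higher in TH1 cells. Il2 (chr3:37120523-37125959, minus strand) ran from 218 to 698 CPM (median 391) in reactivated TH1 libraries, against 6.75 to 24.8 CPM (median 16.6) in activated naive libraries, with no overlap between the groups. Its log2 fold change was 4.62 ± 0.31 (adjusted p = 1.17e-09). In unstimulated cells Il2 was close to absent, with 0.0571 ± 0.0386 CPM in TH1 effectors and 0 CPM in naive cells.

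The 250 bases upstream of the start sites of these cytokine genes are given to show what the regulatory DNA nearest to them holds. They come from RefSeq (GRCm38.p6, the build also called mm10), 5′ to 3′ on the strand of the gene, with matches to GGAAA, the core of an NFAT site, in capitals on either strand. Start sites are those of RefSeq and can differ by a few bases from the gene ends above. The stretches are chr10:118440796-118441045 for Ifng and chr3:37125955-37126204, minus strand, for Il2.
Ifng: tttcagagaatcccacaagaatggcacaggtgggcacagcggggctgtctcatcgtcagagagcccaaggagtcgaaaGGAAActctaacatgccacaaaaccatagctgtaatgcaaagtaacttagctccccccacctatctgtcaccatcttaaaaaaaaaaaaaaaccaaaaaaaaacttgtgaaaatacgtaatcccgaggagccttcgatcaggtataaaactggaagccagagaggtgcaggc
Il2: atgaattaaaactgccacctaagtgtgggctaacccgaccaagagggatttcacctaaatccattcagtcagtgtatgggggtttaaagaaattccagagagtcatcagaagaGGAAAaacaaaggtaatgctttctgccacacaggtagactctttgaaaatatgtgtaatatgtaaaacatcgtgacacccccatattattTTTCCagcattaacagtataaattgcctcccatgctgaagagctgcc
The Ifng stretch held 1 match, which begins 172 bases before the start site, and the Il2 stretch held 2, at 137 and 47 bases before it. Neither held TGANTCA, the AP-1 site, or GCGTGGGCG, the EGR site, on either strand. Among promoters of that length, GGAAA occurred in 54.5% of 2708 promoters of genes at least 2-fold higher in reactivated TH1 cells, in 49.6% of 1288 promoters of genes at least 2-fold lower, and in 54.2% of 11905 promoters of tested genes. The AP-1 site occurred in 5.58%, 5.05% and 4.44% of the same promoters. These matches describe letters in a window and not bound sites.

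Most genes of the TH1 programme were higher in reactivated TH1 cells. Of 33 tested members 25 were higher and 4 lower, with a median log2 fold change of 2.37. Tbx21, the gene of T-bet, was at least 142 CPM in reactivated TH1 libraries (median 196, mean 193 ± 34.8 CPM), against 31.5 to 47.7 CPM (median 38.2) in activated naive libraries. The groups did not overlap. Unstimulated cells held 98.8 ± 10.4 CPM in TH1 effectors and 0.116 ± 0.0702 CPM in naive cells. Its log2 fold change was 2.32 ± 0.11 (adjusted p = 1.88e-14). Chains of the receptors for interleukins 12 and 18, cytokines that macrophages are known to give TH1 cells, were higher too, with log2 fold changes of 4.33 for Il12rb2, 2.37 for Il12rb1, 7.65 for Il18r1 and 6.44 for Il18rap. These 4 genes were named after their values were seen. The 4 lower members were Runx1, Ifngr2, Il27ra and Cxcr3. Runx1, a factor of T cell development that is known to act on both sides of helper fate choice, ran from 24.2 to 37.3 CPM (median 30.4) in reactivated TH1 libraries, against 268 to 336 CPM (median 295) in activated naive libraries, and its log2 fold change was -3.33 ± 0.13 (adjusted p = 3.49e-11). Cxcr3, a chemokine receptor typical of TH1 cells, had a log2 fold change of -0.38. Ifngr2 and Il27ra, chains of the receptors for interferon-γ and interleukin 27, had log2 fold changes of -1.83 and -1.06. Fasl, Ly6c1 and Tnf were among the 4 members that did not pass.

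**Figure D2:**
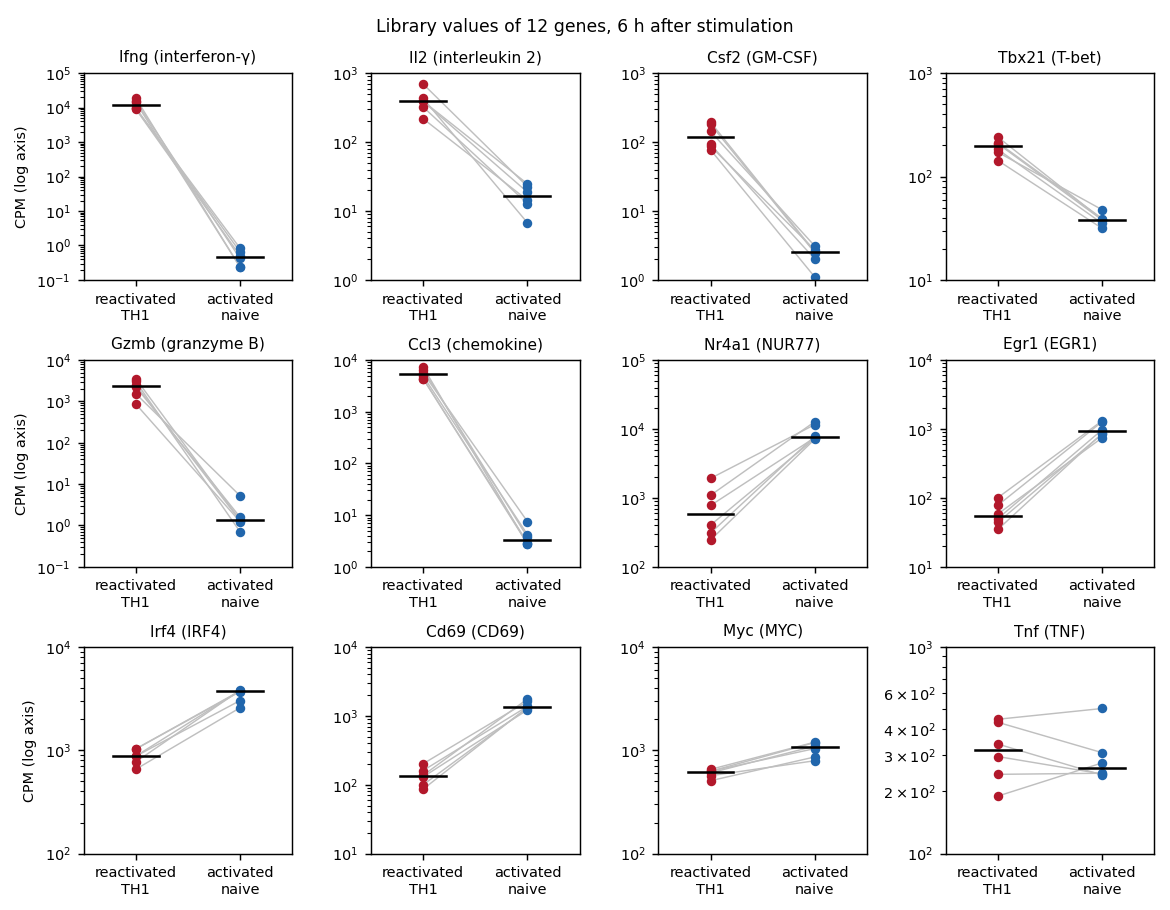
Level of 12 genes in each library, in CPM on a log axis, with reactivated TH1 libraries in red, activated naive libraries in blue, grey lines that join libraries of the same number and black bars at the group medians. Cytokine and effector genes lie higher in every reactivated TH1 library, Nr4a1, Egr1, Irf4, Cd69 and Myc lie lower in every one, and Tnf overlaps.

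Other helper cytokines moved the same way. Of 30 tested members 26 were higher and 1 lower, with a median log2 fold change of 6.10, or 5.64 with genes that had no count in activated naive libraries set at their bounds. When 10 CPM was required in a group, 15 members were still called higher. Il3, a growth factor for myeloid progenitors and basophils, ran from 670.1 to 1274 CPM (median 868) in reactivated TH1 libraries, against 0.0671 to 0.392 CPM (median 0.222) in activated naive libraries. In unstimulated cells Il3 averaged 0.175 ± 0.171 CPM in TH1 effectors. Its log2 fold change was 12.11 ± 0.36 (adjusted p = 7.03e-20). Spp1, osteopontin, which T cells and macrophages are both known to make, ran from 147 to 513 CPM (median 331) in reactivated TH1 libraries, against 0 to 0.0796 CPM (median 0.0418) in activated naive libraries (log2 fold change 12.86 ± 0.20, adjusted p = 3.93e-20). Cytokines of other helper fates were detected in reactivated TH1 cells, with Il10 at 108 ± 70.0 CPM and Il21 at 195 ± 85.9 CPM, against 0.133 ± 0.1000 and 0.260 ± 0.150 CPM in activated naive cells. Il4 and Il13, cytokines of TH2 cells, averaged 1.05 and 1.61 CPM in reactivated TH1 cells and 0.0113 and 0 CPM in activated naive cells. Il10, Il21, Il4 and Il13 were named after their values were seen. The single lower member was Il16, a chemoattractant for CD4 cells, with 19.7 to 38.3 CPM (median 30.4) in reactivated TH1 libraries and 43.3 to 139.8 CPM (median 94.0) in activated naive libraries (log2 fold change -1.53 ± 0.26, adjusted p = 3.46e-06). Its exons overlap those of a gene on the opposite strand, so its counts are uncertain.

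Tumour necrosis factor was the exception among the main TH1 cytokines. Tnf ran from 189.5 to 447 CPM (median 317) in reactivated TH1 libraries and from 239.8 to 504 CPM (median 260.2) in activated naive libraries. The groups overlapped, and 3 of 6 pairs were higher. The log2 fold change was 0.10 ± 0.17 and did not pass (adjusted p = 0.558). Unstimulated cells averaged 32.6 ± 3.25 CPM in TH1 effectors and 29.2 ± 1.75 CPM in naive cells. Of the 13 tested ligands of the TNF superfamily 9 were higher and 1, Tnfsf13b, was lower. Cd70, the ligand of CD27, ran from 28.4 to 40.5 CPM (median 33.2) in reactivated TH1 libraries and had no count in any activated naive library. Against a floor of 3 counts over the 6 activated naive libraries, Cd70 was at least 1750-fold higher.

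Nearly all chemokine genes were higher in reactivated TH1 cells. Of 14 tested members 13 were higher and 1, Ccl27a, was lower, with a median log2 fold change of 6.12. When 10 CPM was required in a group, 8 members were called higher. Ccl3, which draws macrophages and T cells, ran from 4352 to 7373 CPM (median 5286) in reactivated TH1 libraries, against 2.73 to 7.52 CPM (median 3.35) in activated naive libraries. Its log2 fold change was 10.48 ± 0.25 (adjusted p = 1.52e-17). Ccl1, a ligand of CCR8, ran from 202 to 486 CPM (median 269) in reactivated TH1 libraries, against 0 to 0.119 CPM (median 0.0510) in activated naive libraries (log2 fold change 12.50 ± 0.31, adjusted p = 2.62e-14). Its receptor gene showed the reverse pattern. Ccr8 ran from 0.492 to 1.49 CPM (median 0.990) in reactivated TH1 libraries, against 50.4 to 94.6 CPM (median 75.0) in activated naive libraries, with a log2 fold change of -6.22 ± 0.17 (adjusted p = 1.79e-19). Ccl4, an inflammatory chemokine, and Xcl1, the ligand of XCR1 on cross-presenting dendritic cells, averaged 1912 ± 293 and 2763 ± 660 CPM in reactivated TH1 cells and 15.9 ± 8.44 and 41.3 ± 15.8 CPM in activated naive cells (SD, n = 6). These 2 genes were named after their values were seen. Ccl3, Ccl4, Ccl9 and Cxcl9 are also known macrophage products, and the macrophage marker values above moved with them, with a part that was not tested.

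Genes of the cytotoxic granule were higher as well. Of 19 tested members 14 were higher and 3 lower, with a median log2 fold change of 1.84. Gzmb, granzyme B, ran from 869.6 to 3570 CPM (median 2402) in reactivated TH1 libraries, against 0.705 to 5.24 CPM (median 1.34) in activated naive libraries, where number 6 had the highest value. Its log2 fold change was 10.29 ± 0.56 (adjusted p = 2.98e-13). Prf1, the pore-forming protein perforin, named after its values were seen, averaged 35.9 ± 12.6 CPM in reactivated TH1 cells and 10.1 ± 1.80 CPM in activated naive cells. The 3 lower members were Gzmm, Lamp1 and Srgn. Srgn, the granule proteoglycan serglycin, ran from 1008 to 1532 CPM (median 1211) in reactivated TH1 libraries, against 1580 to 2303 CPM (median 1820) in activated naive libraries (log2 fold change -0.60 ± 0.06, adjusted p = 2.72e-06). Receptors typical of NK and CD8 T cells moved with the granule genes, and 9 of 10 tested markers of these cells (19 listed) were higher. The activating receptor gene Klrk1 ran from 16.6 to 35.6 CPM (median 29.6) in reactivated TH1 libraries, against 0 to 0.196 CPM (median 0.0175) in activated naive libraries. Summed levels of the list were 188 to 282 CPM in reactivated TH1 libraries and 9.55 to 17.8 CPM in activated naive libraries. Most of the sum came from Cd160 and Eomes, at 122 and 54.1 CPM in reactivated TH1 cells and 5.45 and 1.72 CPM in activated naive cells, both named after their values were seen. The NK cell receptor gene Ncr1 had 0 counts in both groups, and Cd8b1 averaged 3.997 CPM in reactivated TH1 cells and 5.26 CPM in activated naive cells.

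The immediate-early genes went the other way. Of 44 tested members 28 were lower in reactivated TH1 cells and 12 higher, with a median log2 fold change of -0.79, against 0.08 over all tested genes. Nr4a1 (chr15:101254269-101274795, plus strand), the gene of NUR77, whose transcription tracks the strength of receptor signalling, ran from 245 to 1918 CPM (median 589.6) in reactivated TH1 libraries, against 7143 to 12800 CPM (median 7690) in activated naive libraries. No library of one group reached the other, and on a log scale the reactivated TH1 libraries spread more than the activated naive libraries. The log2 fold change was -3.73 ± 0.36 (adjusted p = 3.42e-07). At rest Nr4a1 averaged 298 ± 160.1 CPM in TH1 effectors and 434 ± 199 CPM in naive cells. Egr1, a zinc finger factor induced through MAP kinases, had the lowest fold change of the list. It ran from 34.9 to 101 CPM (median 54.4) in reactivated TH1 libraries, against 748 to 1323 CPM (median 920.2) in activated naive libraries, and its log2 fold change was -4.07 ± 0.15 (adjusted p = 1.31e-08). Egr2, its relative that also acts in T cell tolerance, differed less. It ran from 296 to 409 CPM (median 362) in reactivated TH1 libraries, against 528 to 805 CPM (median 556) in activated naive libraries (log2 fold change -0.80 ± 0.07, adjusted p = 7.75e-06), and unstimulated cells held 4.70 ± 1.84 CPM in TH1 effectors and 4.33 ± 0.730 CPM in naive cells.

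Irf4, whose level in T cells follows receptor signal strength, ran from 655 to 1027 CPM (median 878) in reactivated TH1 libraries, against 2580 to 3825 CPM (median 3726) in activated naive libraries. Its log2 fold change was -1.99 ± 0.08 (adjusted p = 1.22e-13). Unstimulated cells held 682 ± 116 CPM in TH1 effectors and 6.62 ± 1.26 CPM in naive cells. Cd69, an early activation antigen that retains cells in lymphoid tissue, ran from 86.3 to 202 CPM (median 133) in reactivated TH1 libraries, against 1225 to 1757 CPM (median 1351) in activated naive libraries (log2 fold change -3.44 ± 0.16, adjusted p = 3.04e-13). At rest Cd69 averaged 95.8 ± 15.5 CPM in TH1 effectors and 99.5 ± 34.1 CPM in naive cells. Myc, which drives growth before division, ran from 508 to 654 CPM (median 616) in reactivated TH1 libraries, against 793 to 1205 CPM (median 1071) in activated naive libraries, with a log2 fold change of -0.78 ± 0.07 (adjusted p = 1.10e-06). Il2ra, the inducible chain of the interleukin 2 receptor, had a small difference. It ran from 1449 to 1877 CPM (median 1676) in reactivated TH1 libraries and from 1757 to 1996 CPM (median 1851) in activated naive libraries. The groups overlapped, and 1 of 6 pairs was higher. The log2 fold change was -0.16 ± 0.07 (adjusted p = 0.0242), and the call was lost without the replicate block and the run term (adjusted p = 0.127), in the second sequencing run alone (0.807) and without number 1 (0.0736), 2 (0.06) or 3 (0.141).

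The 12 higher members included AP-1 partners of the BATF family and receptors of the TNF family. Batf3 ran from 10.3 to 20.8 CPM (median 17.5) in reactivated TH1 libraries, against 0 to 0.392 CPM (median 0.0576) in activated naive libraries (log2 fold change 7.22 ± 0.42, adjusted p = 3.35e-13), and TH1 effectors held 126 ± 14.3 CPM before the stimulus. The costimulatory receptor genes Tnfrsf4 (OX40) and Tnfrsf9 (4-1BB) had log2 fold changes of 4.81 and 1.55. They were named after their values were seen. AP-1 subunits split, since Jun and Jund were higher (1.47 and 0.97) while Fos, Fosl1, Fosl2 and Junb were lower (-2.43, -0.93, -2.85 and -0.22). The 4 members that did not pass were Fosb, Ikzf2, Gadd45b and Tagap. Gadd45b, a stress response gene, ran from 68.0 to 153 CPM (median 123) in reactivated TH1 libraries and from 119 to 202 CPM (median 151) in activated naive libraries, with a log2 fold change of -0.32 ± 0.14 (adjusted p = 0.189). Tagap, a GTPase-activating protein of activated T cells, ran from 837 to 1249 CPM (median 1012) in reactivated TH1 libraries and from 1172 to 1365 CPM (median 1318) in activated naive libraries, with a log2 fold change of -0.37 ± 0.09 (adjusted p = 0.086). Tagap was lower in 6 of 6 pairs and passed in a fit of the 12 libraries alone (adjusted p = 0.000711). Gadd45b also passed in that fit (adjusted p = 0.014).

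**Figure D3:**
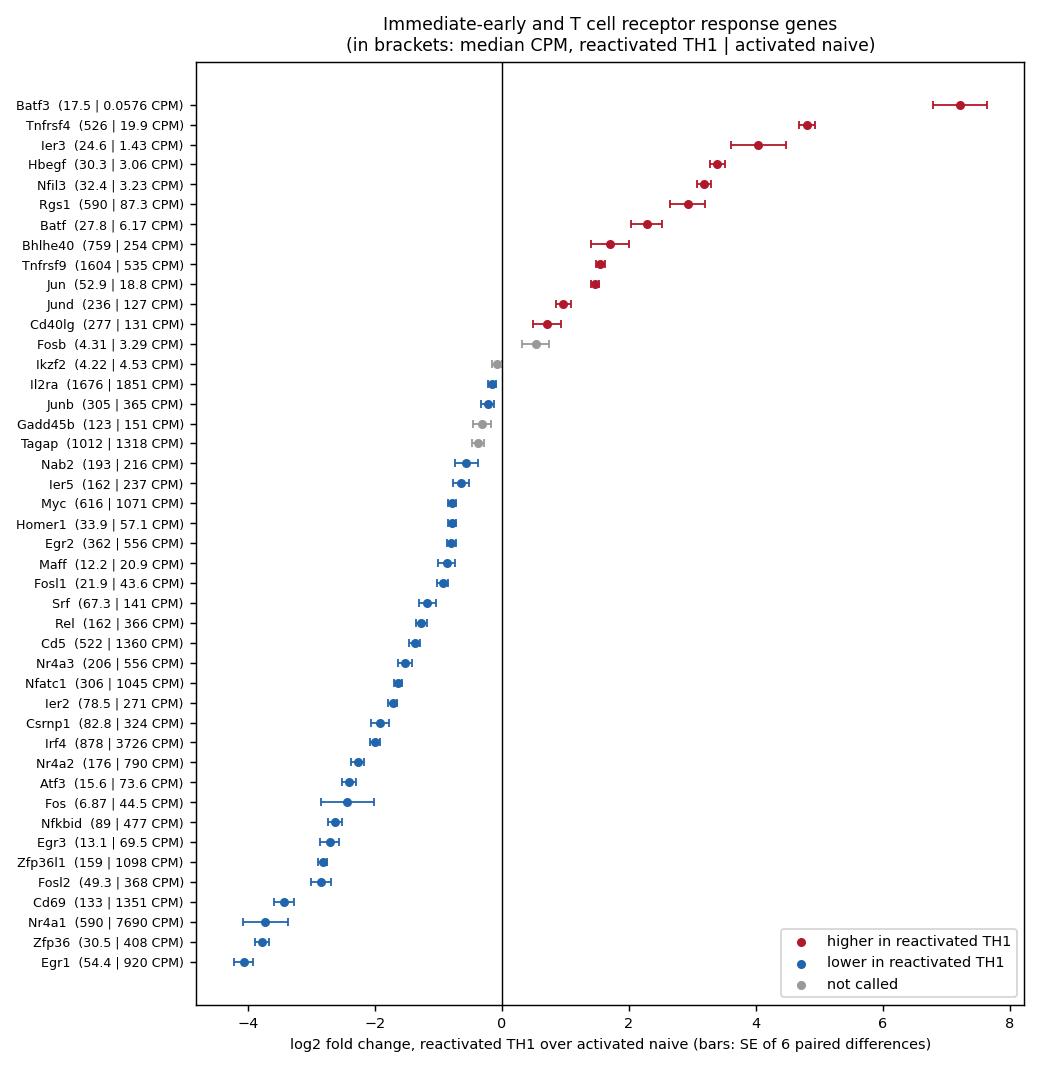
Log2 fold change of each of the 44 tested genes of the early response to the T cell receptor, reactivated TH1 over activated naive, with bars for the standard error of the 6 paired differences. The 12 red points are called higher, the 28 blue points called lower and the 4 grey points not called, and the scale runs from -4.07 for Egr1 to 7.22 for Batf3.

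Genes that carry or damp the receptor signal were more often lower. Of 43 tested genes of the receptor complex and proximal signalling 24 were lower and 16 higher (median log2 fold change -0.28), and of 50 feedback regulators 26 were lower and 16 higher (median -0.28). The kinase genes Lck and Zap70 had log2 fold changes of -1.34 and -1.57. Txk, a TEC family kinase, ran from 0.984 to 2.08 CPM (median 1.76) in reactivated TH1 libraries, against 13.3 to 20.1 CPM (median 16.4) in activated naive libraries (log2 fold change -3.36 ± 0.14, adjusted p = 7.96e-13). At rest it averaged 10.0 ± 2.67 CPM in TH1 effectors and 178 ± 13.8 CPM in naive cells. The invariant chains of the receptor complex differed from one another. Cd247, the zeta chain, had a log2 fold change of 1.98, Cd3d one of 0.17, Cd3e one of -0.38 and Cd3g one of -0.83. The coreceptor gene Cd4 ran from 383 to 478 CPM (median 421) in reactivated TH1 libraries, against 120 to 145 CPM (median 130.1) in activated naive libraries, with a log2 fold change of 1.69 ± 0.03 (adjusted p = 1.52e-17). At rest TH1 effectors held 459 ± 21.0 CPM of Cd4 and naive cells 926 ± 52.8 CPM. Thy1, a glycoprotein of the T cell surface, ran from 1240 to 1398 CPM (median 1320) in reactivated TH1 libraries, against 133 to 217 CPM (median 179) in activated naive libraries (log2 fold change 2.88 ± 0.11, adjusted p = 2.13e-18). Lck, Zap70 and Cd247 were named after their values were seen, as were Cd3d, Cd3e and Cd3g, which are the T cell markers.

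Among feedback regulators, Socs2, an inhibitor of cytokine receptor signalling, ran from 10.3 to 24.9 CPM (median 18.4) in reactivated TH1 libraries, against 0 to 0.882 CPM (median 0.0544) in activated naive libraries (log2 fold change 6.75 ± 0.63, adjusted p = 1.94e-12). TH1 effectors held 214 ± 29.0 CPM of Socs2 at rest. Rgs10, a regulator of G protein signalling, ran from 10.5 to 14.3 CPM (median 13.6) in reactivated TH1 libraries, against 69.0 to 92.7 CPM (median 77.9) in activated naive libraries (log2 fold change -2.62 ± 0.10, adjusted p = 2.24e-17). NF-kB subunits and targets stood near the background, with 16 higher and 14 lower of 36. Within that list the subunit genes Nfkb1, Rel and Relb were lower, with log2 fold changes of -1.55, -1.27 and -1.30. Rela was lower as well, at 173 CPM in reactivated TH1 cells and 346 CPM in activated naive cells, while Nfkb2 did not pass (log2 fold change 0.28). They were named after their values were seen, and they are the 5 subunit genes of the family. Nfkbid, an atypical inhibitor induced by receptor signals, ran from 68.1 to 131 CPM (median 89.0) in reactivated TH1 libraries, against 412 to 918 CPM (median 477) in activated naive libraries (log2 fold change -2.63 ± 0.11, adjusted p = 2.07e-12).

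Receptors at the cell surface split between the groups. Of 42 tested costimulatory and inhibitory receptors 23 were higher and 15 lower, of 37 cytokine receptor and JAK-STAT genes 20 were higher and 15 lower, and of 35 chemokine receptors and homing genes 19 were higher and 11 lower. Inhibitory receptors did not move together. Lag3, Havcr2 and Ctla4 were higher, with log2 fold changes of 6.12, 6.91 and 3.14, and Pdcd1 and Btla were lower (-0.60 and -0.28). These 5 genes were named after their values were seen. Cd274, the gene of PD-L1, the ligand of PD-1, ran from 145 to 283 CPM (median 194) in reactivated TH1 libraries, against 679.9 to 1059 CPM (median 825) in activated naive libraries (log2 fold change -2.05 ± 0.10, adjusted p = 8.52e-09). Cd80, a ligand of CD28 and CTLA-4 that antigen-presenting cells are known for, ran from 6.26 to 14.1 CPM (median 11.6) in reactivated TH1 libraries, against 0 to 0.245 CPM (median 0.0175) in activated naive libraries, and unstimulated TH1 effectors held 10.2 ± 1.44 CPM. Il1rl1, the receptor for interleukin 33, ran from 65.3 to 139 CPM (median 106) in reactivated TH1 libraries, against 0 to 0.159 CPM (median 0.0748) in activated naive libraries (log2 fold change 10.39 ± 0.18, adjusted p = 2.27e-18). Il6st, the shared signalling chain of the interleukin 6 family, ran from 31.2 to 37.7 CPM (median 35.5) in reactivated TH1 libraries, against 246 to 367 CPM (median 277) in activated naive libraries (log2 fold change -3.07 ± 0.13, adjusted p = 6.65e-16). Gcnt1, a glycosyltransferase for selectin ligands, ran from 9.56 to 12.1 CPM (median 11.7) in reactivated TH1 libraries, against 0.159 to 0.441 CPM (median 0.220) in activated naive libraries (log2 fold change 5.45 ± 0.13, adjusted p = 1.94e-15).

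Genes of the naive and memory state were mostly lower in TH1 cells, with 23 lower and 7 higher of 37 (median log2 fold change -0.45). Klf2, which drives egress and homing genes, ran from 1.19 to 2.31 CPM (median 1.73) in reactivated TH1 libraries, against 16.4 to 36.7 CPM (median 24.7) in activated naive libraries (log2 fold change -3.96 ± 0.33, adjusted p = 8.46e-10). Both groups lay under the 373 ± 116 CPM of naive cells. Il7r, the receptor for the survival cytokine interleukin 7, was one of the 7 higher members. It ran from 44.7 to 76.3 CPM (median 58.6) in reactivated TH1 libraries, against 0.973 to 2.65 CPM (median 1.71) in activated naive libraries (log2 fold change 5.18 ± 0.24, adjusted p = 5.21e-16), while unstimulated cells held 241.8 ± 34.4 CPM in TH1 effectors and 419.6 ± 87.9 CPM in naive cells. Tcf7, the gene of TCF-1, ran from 150.5 to 200.2 CPM (median 181) in reactivated TH1 libraries and from 105 to 465 CPM (median 166.1) in activated naive libraries. The groups overlapped, 3 of 6 pairs were higher, and the log2 fold change of -0.25 ± 0.32 did not pass (adjusted p = 0.339). Naive cells held 2355 ± 162.9 CPM of Tcf7.

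Factors and receptors of other helper fates went both ways, with 13 higher and 16 lower of 33. Tox, a nuclear factor of T cell development and exhaustion that is also in the list of chromatin genes, ran from 2.79 to 4.74 CPM (median 3.31) in reactivated TH1 libraries, against 106 to 142 CPM (median 125) in activated naive libraries (log2 fold change -5.14 ± 0.12, adjusted p = 1.05e-19). Bcl6 and Gata3, the factors of follicular and TH2 cells, had log2 fold changes of -2.20 and -1.32, both called lower. Foxp3, the factor of regulatory T cells, did not pass, at 0.780 ± 0.171 CPM in reactivated TH1 cells and 1.02 ± 0.449 CPM in activated naive cells. These 3 genes were named after their values were seen. Among chromatin and DNA methylation genes 20 of 32 were lower, with Tox the lowest of those with 10 CPM in a group, and 7 were higher, among them Uhrf1, which maintains DNA methylation behind the replication fork. Uhrf1 ran from 224 to 284 CPM (median 271) in reactivated TH1 libraries, against 7.06 to 10.4 CPM (median 7.44) in activated naive libraries (log2 fold change 5.08 ± 0.09, adjusted p = 1.56e-21).

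Every cell cycle gene of 2 lists was higher. All 39 tested genes of DNA replication and S phase and all 40 of mitosis were higher in reactivated TH1 cells, with median log2 fold changes of 2.46 and 6.72. Pbk, a mitotic kinase, ran from 51.2 to 89.0 CPM (median 80.5) in reactivated TH1 libraries, against 3 counts in all over the activated naive libraries, which gives a ratio of 3890 (95% counting interval 1330 to 18900). Tk1, the thymidine kinase of S phase, ran from 37.9 to 56.2 CPM (median 51.2) in reactivated TH1 libraries, against 0 to 0.147 CPM (median 0.0916) in activated naive libraries (log2 fold change 9.25 ± 0.26, adjusted p = 3.07e-20). Its exons overlap those of a gene on the opposite strand, so its counts are uncertain. The same genes were higher before stimulation, with 39 of 39 S phase genes and 39 of 40 mitosis genes higher in TH1 effectors than in naive cells. Cyclins and inhibitors of G1 went both ways, with 16 higher and 8 lower of 26. Cdkn2c, an inhibitor of CDK4 and CDK6, ran from 8.59 to 20.2 CPM (median 15.9) in reactivated TH1 libraries, against 0.134 to 0.784 CPM (median 0.382) in activated naive libraries (log2 fold change 5.21 ± 0.46, adjusted p = 6.55e-14). Btg2, which restrains division, ran from 47.0 to 114 CPM (median 57.5) in reactivated TH1 libraries, against 198 to 481 CPM (median 226) in activated naive libraries (log2 fold change -2.06 ± 0.05, adjusted p = 9.74e-09).

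**Figure D4:**
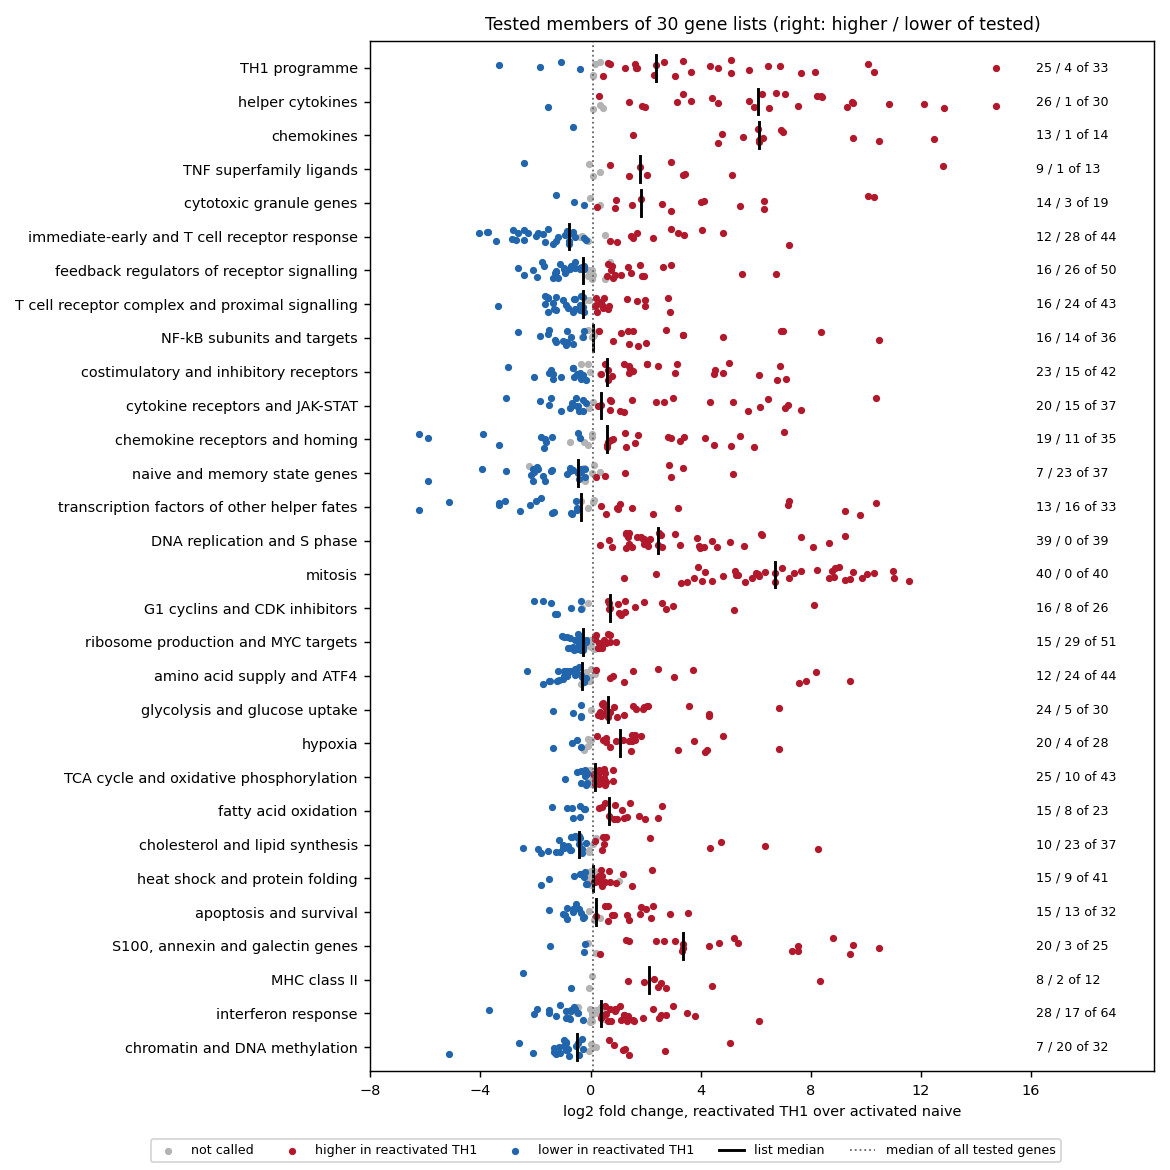
Log2 fold change, reactivated TH1 over activated naive, of the tested members of 30 gene lists, with called members in red (higher) and blue (lower), uncalled members in grey, list medians as black bars and the median of all tested genes (0.08) as a dotted line. Mitosis genes (median 6.72), chemokines (6.12) and helper cytokines (6.10) lie farthest to the right, and immediate-early genes have the lowest median (-0.79).

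Growth and metabolism were split by pathway. Glycolysis and glucose uptake had 24 genes higher and 5 lower of 30, and hypoxia genes 20 higher and 4 lower of 28. Aldoc, an aldolase, ran from 5.94 to 17.3 CPM (median 11.6) in reactivated TH1 libraries, against 0 to 0.245 CPM (median 0.0430) in activated naive libraries (log2 fold change 6.86 ± 0.57, adjusted p = 1.78e-13), and TH1 effectors held 102 ± 36.7 CPM. Pfkfb4, which sets the level of a glycolytic activator, ran from 3.29 to 4.88 CPM (median 4.08) in reactivated TH1 libraries, against 9.58 to 11.7 CPM (median 10.3) in activated naive libraries (log2 fold change -1.35 ± 0.07, adjusted p = 1.72e-09). Ribosome production and MYC targets were more often lower, with 29 lower and 15 higher of 51, and their median log2 fold change was -0.27. Hspd1, a mitochondrial chaperonin, and Nle1, a factor of ribosome assembly, had the most positive and most negative log2 fold changes of the list with 10 CPM in a group, 0.93 and -1.02, and both have exons that overlap an opposite-strand gene. Amino acid supply and ATF4 genes had 24 lower and 12 higher of 44. Cth, the cystathionine lyase that makes cysteine, ran from 65.1 to 79.4 CPM (median 71.1) in reactivated TH1 libraries, against 0.0922 to 0.385 CPM (median 0.217) in activated naive libraries (log2 fold change 8.199 ± 0.26, adjusted p = 7.20e-18). Ddit3, the stress factor CHOP, ran from 18.4 to 25.6 CPM (median 21.5) in reactivated TH1 libraries, against 93.9 to 119 CPM (median 106) in activated naive libraries (log2 fold change -2.29 ± 0.09, adjusted p = 1.49e-16). The amino acid transporter genes Slc7a5, Slc3a2 and Slc1a5, named after their values were seen, had log2 fold changes of -0.89, -1.22 and -0.87.

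Cholesterol and lipid synthesis was mostly lower, with 23 lower and 10 higher of 37, but the desaturase genes Scd1, Scd2 and Fads2 were higher. Scd1 ran from 21.6 to 44.2 CPM (median 40.2) in reactivated TH1 libraries, against 0 to 0.441 CPM (median 0.0723) in activated naive libraries (log2 fold change 8.26 ± 0.32, adjusted p = 2.49e-17). Scd2 and Fads2, named after their values were seen, had log2 fold changes of 4.75 and 6.34. Mylip, which targets the LDL receptor for degradation, ran from 3.63 to 7.26 CPM (median 6.13) in reactivated TH1 libraries, against 22.2 to 36.9 CPM (median 33.3) in activated naive libraries (log2 fold change -2.45 ± 0.06, adjusted p = 5.10e-11). Fatty acid oxidation had 15 genes higher and 8 lower of 23, with Acot7, an acyl-CoA thioesterase, at 226 to 259 CPM (median 244) in reactivated TH1 libraries and 36.2 to 45.1 CPM (median 39.8) in activated naive libraries (log2 fold change 2.59 ± 0.03, adjusted p = 7.24e-14). The carnitine carrier gene Slc25a20 ran from 28.5 to 33.8 CPM (median 29.9) in reactivated TH1 libraries, against 62.3 to 90.1 CPM (median 82.6) in activated naive libraries (log2 fold change -1.39 ± 0.08, adjusted p = 1.36e-13). Of 43 TCA cycle and oxidative phosphorylation genes 25 were higher and 10 lower, none of them by 2-fold, with a median log2 fold change of 0.18. Idh2, a mitochondrial isocitrate dehydrogenase, ran from 18.6 to 24.2 CPM (median 20.8) in reactivated TH1 libraries, against 11.1 to 13.3 CPM (median 12.1) in activated naive libraries. Ndufa4, a subunit of the respiratory chain, ran from 41.0 to 53.8 CPM (median 45.5) in reactivated TH1 libraries, against 83.1 to 95.0 CPM (median 86.6) in activated naive libraries. Heat shock and protein folding had 15 higher and 9 lower of 41, both under the shares over all tested genes, and 9 were called higher in the second run alone. Bag3, a partner of the HSP70 chaperones, ran from 14.3 to 22.8 CPM (median 19.9) in reactivated TH1 libraries, against 3.98 to 10.8 CPM (median 6.82) in activated naive libraries (log2 fold change 1.49 ± 0.24, adjusted p = 7.12e-09). Hspa4l, an HSP110 family chaperone, ran from 78.6 to 109 CPM (median 92.8) in reactivated TH1 libraries, against 277 to 407 CPM (median 328) in activated naive libraries (log2 fold change -1.82 ± 0.04, adjusted p = 1.47e-15). Apoptosis and survival had 15 higher and 13 lower of 32. Birc3, an inhibitor of apoptosis, ran from 79.3 to 89.2 CPM (median 82.1) in reactivated TH1 libraries, against 215 to 262 CPM (median 231) in activated naive libraries (log2 fold change -1.51 ± 0.05, adjusted p = 4.54e-14).

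Genes of the cell periphery and of antigen handling were also higher. S100, annexin and galectin genes had 20 higher and 3 lower of 25, with a median log2 fold change of 3.35. S100a6, a calcium-binding protein, ran from 34.4 to 119 CPM (median 79.2) in reactivated TH1 libraries, against 0 to 0.196 CPM (median 0.0405) in activated naive libraries (log2 fold change 10.48 ± 0.44, adjusted p = 7.03e-19). Lgals3, galectin-3, which is also a macrophage marker, ran from 44.8 to 253 CPM (median 136) in reactivated TH1 libraries, against 0.0796 to 0.343 CPM (median 0.182) in activated naive libraries (log2 fold change 9.55 ± 0.59, adjusted p = 2.91e-14). The lowest called member with 10 CPM in a group was Lgals8, galectin-8, with a log2 fold change of -1.48 and exons that overlap an opposite-strand gene. Unstimulated TH1 effectors held 44.8 ± 15.4 CPM of Lgals3. MHC class II genes had 8 higher and 2 lower of 12, and 5 were called higher when 10 CPM was required in a group. The chains of one class II molecule disagreed, since H2-Aa ran from 3.98 to 11.5 CPM (median 6.31) in reactivated TH1 libraries, against 27.0 to 51.9 CPM (median 34.3) in activated naive libraries (log2 fold change -2.47 ± 0.34, adjusted p = 5.36e-07), while its partner H2-Ab1, named after its values were seen, averaged 15.2 ± 1.75 CPM in reactivated TH1 cells and 3.15 ± 0.732 CPM in activated naive cells. Cd74, the invariant chain, ran from 49.3 to 98.0 CPM (median 60.0) in reactivated TH1 libraries, against 10.00 to 13.1 CPM (median 11.6) in activated naive libraries (log2 fold change 2.46 ± 0.20, adjusted p = 5.43e-08). A microRNA gene lies within its exons on the same strand.

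Of 64 tested interferon response genes 28 were higher (43.8%, the share over all tested genes) and 17 lower (26.6%, against 36.6%), and 17 were called higher in the second run alone. Cxcl9, a chemokine induced by interferon-γ, ran from 15.9 to 24.2 CPM (median 18.02) in reactivated TH1 libraries, against 0.0690 to 0.968 CPM (median 0.148) in activated naive libraries (log2 fold change 6.11 ± 0.40, adjusted p = 6.87e-11). Oas2, an antiviral enzyme, ran from 0.710 to 1.78 CPM (median 0.963) in reactivated TH1 libraries, against 3.93 to 42.9 CPM (median 7.88) in activated naive libraries (log2 fold change -3.68 ± 0.43, adjusted p = 2.47e-06). The summed level of the list was high for the same numbers in both groups. Numbers 5 and 6 had 8272 and 7273 CPM in reactivated TH1 libraries, against 3860 to 6027 CPM in numbers 1 to 4, and they had 8446 and 7823 CPM in activated naive libraries, against 4436 to 5588 CPM in numbers 1 to 4.

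Most tested markers of cells other than CD4 T cells were higher. Of 25 tested macrophage markers (40 listed) 18 were higher and 5 lower, and of 7 dendritic cell markers (13 listed) 6 were higher. Of 6 B cell markers (18 listed) 4 were higher and 1 lower, and both tested markers of neutrophils and red cells (17 listed) were higher. The count filter took in genes expressed in any group, so these counts depend in part on which markers could be tested. Cxcr2, 1 of the 2 neutrophil markers, had 26 counts in reactivated TH1 and 0 in activated naive libraries, against 2591 in TH1 effectors. With 10 CPM required in a group, 5 macrophage markers were called higher and no B cell marker. Il1b and Nos2, inflammatory genes of activated macrophages that were named after their values were seen, averaged 8.64 ± 0.659 and 12.7 ± 2.53 CPM in reactivated TH1 cells, against 0 and 0.0249 ± 0.0420 CPM in activated naive cells. Cebpb, a factor of the myeloid lineage, was the lowest called macrophage marker with 10 CPM in a group, at 4.84 to 10.4 CPM (median 6.57) in reactivated TH1 libraries and 11.8 to 21.8 CPM (median 18.6) in activated naive libraries (log2 fold change -1.29 ± 0.14, adjusted p = 4.35e-06). Its exons overlap those of a gene on the opposite strand. Summed levels were 327 to 414 CPM in reactivated TH1 libraries and 262 to 300 CPM in activated naive libraries for dendritic cell markers, with Xcr1 at 0 counts in both groups. Unstimulated TH1 effectors held 356.8 to 419.2 CPM of the dendritic cell markers and naive cells 68.8 to 90.1 CPM. Summed levels of B cell markers were 1.94 to 3.02 CPM in reactivated TH1 libraries and 0.83 to 1.14 CPM in activated naive libraries. For neutrophil and red cell markers the sums were 1.76 to 5.21 CPM in reactivated TH1 libraries and 0.199 to 0.686 CPM in activated naive libraries, with the haemoglobin gene Hba-a1 at 0 counts in both groups.

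Outside the lists, several of the largest differences fell on genes with little known role in TH1 cells. Mpzl2, an adhesion molecule of epithelia and thymus, ran from 89.6 to 163.8 CPM (median 113) in reactivated TH1 libraries, against 0 to 0.0922 CPM (median 0.0340) in activated naive libraries (log2 fold change 11.71 ± 0.19, adjusted p = 6.08e-16). The gene listed as Siglec5, a symbol that RefSeq gives as a synonym of both Siglecf and Siglece, ran from 33.7 to 90.9 CPM (median 57.2) in reactivated TH1 libraries and had no count in activated naive libraries, at least 3090-fold higher against the floor of 3 counts. Prkcdbp, which RefSeq names Cavin3, a component of caveolae, ran from 7.19 to 29.9 CPM (median 18.1) in reactivated TH1 libraries and had no count in activated naive libraries, at least 922-fold higher. The gene listed as 1810009J06Rik ran from 31.5 to 60.8 CPM (median 49.3) in reactivated TH1 libraries, against 1 count in 1 activated naive library, which gives a ratio of 7510 (95% counting interval 1350 to 297000). On the lower side, Xkrx ran from 0.0316 to 0.502 CPM (median 0.143) in reactivated TH1 libraries, against 17.9 to 28.3 CPM (median 21.9) in activated naive libraries (log2 fold change -6.88 ± 0.46, adjusted p = 1.92e-15). Ttc28, Gpr83 and Slc14a1, the last a urea transporter gene, had log2 fold changes of -6.46, -5.65 and -5.64. Tbc1d30, a GTPase-activating protein gene, ran from 3.70 to 7.204 CPM (median 5.71) in reactivated TH1 libraries, against 213 to 274 CPM (median 238.6) in activated naive libraries (log2 fold change -5.39 ± 0.15, adjusted p = 2.65e-15). Neurl3, an E3 ubiquitin ligase gene, ran from 3.86 to 5.78 CPM (median 5.19) in reactivated TH1 libraries, against 109 to 225 CPM (median 152) in activated naive libraries (log2 fold change -5.00 ± 0.17, adjusted p = 6.13e-14). Stc1, which encodes a secreted glycoprotein hormone, ran from 0.183 to 0.643 CPM (median 0.432) in reactivated TH1 libraries, against 8.80 to 24.5 CPM (median 13.3) in activated naive libraries, and Ramp3, whose product modifies G protein-coupled receptors and whose exons overlap those of an opposite-strand gene, had a log2 fold change of -5.14.

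Many of these differences were present before the stimulus. TH1 effectors and naive cells at rest, which share no library with the stimulated groups but carry the same 6 numbers, differed in most tested genes, with 5645 higher (44.9%) and 5101 lower (40.5%) in TH1 effectors. The difference was at least 2-fold upward in 3174 genes (25.2%) and downward in 2062 (16.4%). Of the 2901 genes at least 2-fold higher in reactivated TH1 cells than in activated naive cells, 2045 were also at least 2-fold higher at rest, which is 70.5% of the stimulated list and 64.4% of the resting list. Of the 1376 genes at least 2-fold lower, 735 were also at least 2-fold lower at rest, which is 53.4% and 35.6% of the lists. Over all 12584 tested genes the log2 differences at rest and after stimulation had a Pearson correlation of 0.727 across genes, which are not independent replicates.

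A smaller set pointed in opposite directions. Of the 1376 genes at least 2-fold lower in reactivated TH1 cells, 117 (8.5%) were at least 2-fold higher in TH1 effectors than in naive cells. Of the 2901 genes at least 2-fold higher, 137 (4.72%) were at least 2-fold lower at rest. Over all tested genes these resting shares were 25.2% and 16.4%. With 10 CPM or more required in the higher stimulated group, 63 and 60 of these genes remained. No such floor was set for the resting groups. Among the 63 were transcription factors of the activation response. Irf4 had a log2 difference of -1.99 after stimulation and 6.68 at rest, Atf3, a stress-induced factor, one of -2.41 and 13.32, Fosl2 one of -2.85 and 4.93, and Nr4a2 one of -2.27 and 4.25. Atf3 had no count in any naive library, so its resting value depends on the prior count and gives no size. Ccr8 and Ccr4, receptors of skin-homing cells, had -6.22 and -3.31 after stimulation and 3.07 and 4.39 at rest. Resting levels of Ccr8 were low, with means of 0.610 CPM in TH1 effectors and 0.0644 CPM in naive cells. Among the 60, Cd4 had a log2 difference of 1.69 after stimulation and -1.01 at rest. Cd160, an inhibitory receptor, had one of 4.48 and -1.14, and Itgb7, a gut-homing integrin, one of 3.41 and -1.05. Cd160 was also low at rest, with means of 1.15 CPM in TH1 effectors and 2.45 CPM in naive cells. Mx1, an antiviral GTPase of the interferon response list, had 3.50 and -1.99, but its libraries overlapped after stimulation, with 30.9 to 170.2 CPM (median 91.5) in reactivated TH1 libraries and 0.839 to 31.6 CPM (median 3.78) in activated naive libraries. These examples, apart from Irf4, Ccr8 and Cd4, were named after their values were seen.

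**Figure D5:**
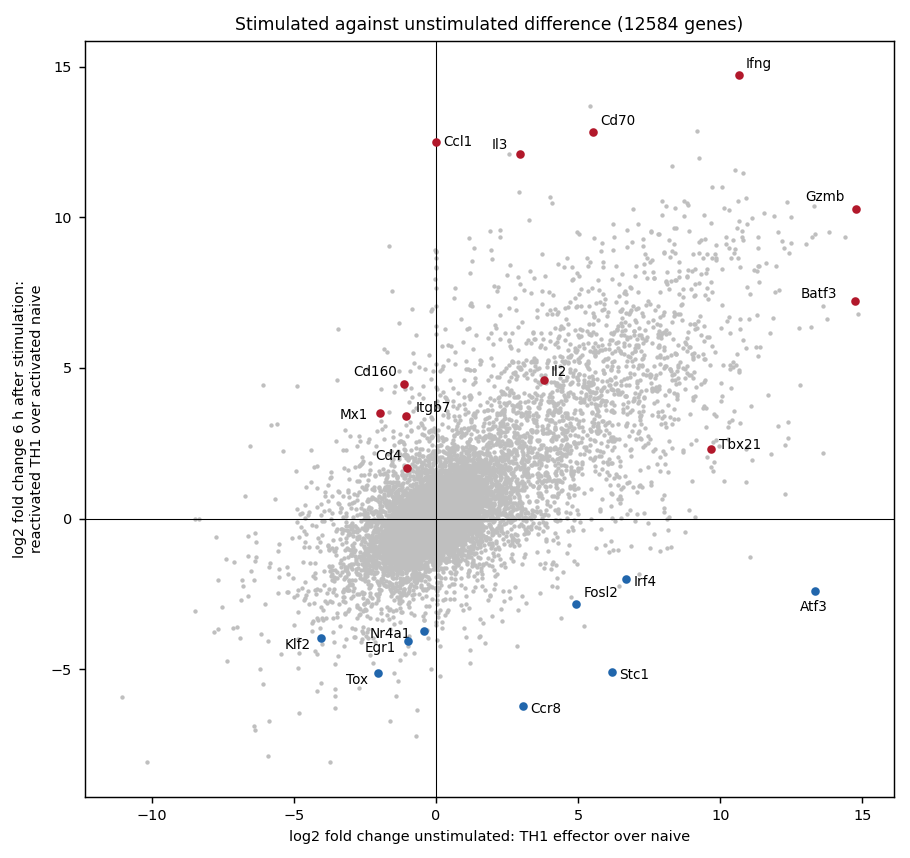
Log2 fold change 6 hours after stimulation, reactivated TH1 over activated naive (vertical), against the log2 fold change without stimulation, TH1 effector over naive (horizontal), for 12584 tested genes in grey, with 21 named genes in red (higher) and blue (lower). Effector genes such as Ifng and Gzmb lie in the upper right, Ccl1 lies on the vertical axis with no count in either resting group, and Irf4, Fosl2, Ccr8, Stc1 and Atf3 lie in the lower right. Resting levels of Ccr8 and Stc1 were low, with Stc1 at 2.36 CPM in TH1 effectors and 0.0296 CPM in naive cells.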

How the data were processed

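RNA-seq libraries were made from total RNA of sorted cells with a stranded kit, per the labels' protocols. The submitters' processing notes list the build mm10 and the tools STAR, HTSeq and DESeq2. The sources used here give no versions, annotation or strand setting. The deposited counts are raw reads per gene, and the 5 summary rows of each file (such as reads given to no feature) were left out. Tests were run with edgeR 4.0.16 under R 4.3.3: filterByExpr, TMM, and a robust quasi-likelihood fit over 24 libraries with group and replicate number as terms. limma 3.58.1 and DESeq2 1.42.0 served as alternatives. log2 CPM used a prior count of 2.

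Numbers pair libraries: deviations from group and run means correlated at 0.189 to 0.393 between libraries of one number, against at most 0.083 between other numbers of the same run, and sex-linked genes agreed by number. Neither the reactivated TH1 nor the activated naive group held a library deposited a second time, and the unstimulated groups were not checked for this. In reactivated TH1 libraries, numbers 2, 3 and 4 had Xist at 1460, 1270 and 2130 CPM and no count of Ddx3y. Numbers 1, 5 and 6 had Xist at 0.758, 0.87 and 0.593 CPM and Ddx3y at 113, 128 and 101 CPM. The other groups split by number in the same way, so the libraries are of mixed sex and do not all come from the same mouse. Nothing in the labels says whether numbers are single mice. A p-value therefore covers only the spread among these libraries, which may be technical in part. The file names hold 2 flow cell codes, taken as runs, each with 3 numbers of every group.

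Named genes were the 10 highest and 10 lowest called fold changes with 10 CPM in the higher group and no overlap, each list's extreme called members, 12 fixed genes, and the uncalled immediate-early genes nearest to 0. Lists and members were chosen with earlier results of these data known. Gene positions come from GENCODE and promoters from RefSeq, matched by symbol. A few genes are not reported here. In simulated counts over 12584 genes, edgeR recovered 36.0% of 1.5-fold, 89.8% of 2-fold and 100% of 4-fold changes. The simulation gave all genes the same spread, had no effect of number or run, and changed only a small part of the genes. It checks that the fit runs as meant, and its rates do not describe the recovery in these data.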

Additional observations from a re-analysis of the deposited data

Results flagged for a closer look

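In each group of 6 libraries the highest and lowest value of every named gene was set against the other 5 (Dixon's test for 6 values). Over 82 named genes and 2 groups each, a library stood apart in 10 cases. Chance gives 1 in 20 when the sets of values are independent. Genes measured in the same library are not, so the count cannot be judged against that rate. All 10 were in activated naive libraries, and in each the library was the highest. Number 6 stood apart for 6 genes that are low in activated naive cells. It had 5.24 CPM of Gzmb, against at most 1.59 CPM in the other 5, and 0.882 CPM of Socs2, against at most 0.138 CPM. It also had 0.441 CPM of Scd1, 0.196 CPM of S100a6, 0.196 CPM of Klrk1 and 0.049 CPM of 1810009J06Rik, the last a single read. Number 4 had 7.52 CPM of Ccl3, against at most 4.21 CPM in the others, and 504 CPM of Tnf, against at most 308 CPM. Number 5 had 95.0 CPM of Ndufa4, a respiratory chain gene, and number 1 had 10.4 CPM of Uhrf1. No cause was tested for these values.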

How the results depend on the processing

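The count of called genes, 10118 in the main fit, ranged from 7950 to 10998 over the alternatives. With no replicate block it was 10045 with run as a term and 9788 with group only. Among named genes the pairing changed the call of only Ddx3y (adjusted p 0.000131 with the block, 0.671 and 0.692 without) and, with group only, Il2ra. Ddx3y lies on the Y chromosome and had at most 2 counts in any stimulated library of numbers 2, 3 and 4. DESeq2 called 10131 genes, limma-voom 10215, a fit of the 12 libraries alone 9650, and each sequencing run alone 9613 and 8845. The runs shared 8285 calls, of which 8284 had the same direction. Leaving out each number in turn gave 9737 to 9983 calls, with 2814 to 2941 genes at least 2-fold higher and 1348 to 1478 at least 2-fold lower. With 10 CPM required in a group, which leaves 9637 genes, 1609 were at least 2-fold higher and 903 at least 2-fold lower. Other scalings kept the median log2 fold change between 0.064 and 0.095. Of single genes, Tcf7 ranged from -0.468 to 0.001 when 1 number was left out, reversing without number 6, and Tnf reversed without numbers 5 and 6 (-0.080), and neither was called in any setting. The cause was not tested. Tagap passed in 5 settings and Gadd45b in 2. Genes with few counts in activated naive libraries have fold changes that rest on those counts, and intervals and floors cover counting error only.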
